A study of Saccharomyces cerevisiae with 8 samples.

Results

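The machinery that degrades messenger RNA in budding yeast, other than the CCR4-NOT complex, was followed through 41 genes of the 5448 yeast genes tested. The 41 genes were taken by name from the probe set annotation, and each was read by 1 probe set. They comprise 7 genes of the decapping enzyme and its activators, 7 of the Lsm1-7 ring, 4 exonuclease and cap-scavenging genes, 5 for Pan2-Pan3 and message-binding proteins, 4 Ski genes, 3 of nonsense-mediated decay and 11 exosome genes. Transcript levels were read on 8 Affymetrix Yeast Genome 2.0 arrays. Each strain had 2 arrays, whose RNA came from whole cells of separately grown cultures. A880STM1K is labelled as A880 that received STM1 with the substitution R237K, numbered as in the labels. A880STM1 is labelled as A880 that received unaltered STM1, whose product binds ribosomes. A880 is described as BY4741 from which POP2 was deleted, POP2 being the gene of a CCR4-NOT nuclease, and BY4741 is the wild type. All 4 strains, the wild type included, grew in synthetic medium with 2% glucose to an optical density of 1 and were then kept for 12 hours on 2% glycerol, to a density of 0.4 to 0.8. The labels name neither the promoter of the added STM1 nor the number of clones behind a strain.

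A yeast message is usually degraded after its poly(A) tail has been shortened. The Lsm1-7 ring and Pat1 then bind its end, Dcp1-Dcp2 removes the cap with the help of Dhh1 and the Edc proteins, and Xrn1 digests the body from the exposed end. In the other direction the exosome, fed in the cytoplasm by the Ski complex, digests from the tail end, while the Upf proteins send messages with premature stop codons to decapping. Signal below is the deposited intensity in linear units, comparable for 1 gene between strains and not between genes. A change is the log2 ratio of the first-named strain over the second, ± SE of the limma fit, with n = 2 arrays per strain throughout. It was called at an adjusted p below 0.05, by Benjamini-Hochberg over all 5496 probe sets tested. In such cultures, fewer cells with a transcript and less of it per cell cannot be told apart.

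The strain labels were checked first. POP2 gave 255 and 176 on the A880STM1K arrays, 181 and 286 on A880STM1, 0.221 and 0.452 on A880, below background, and 883 and 814 on BY4741. The libraries labelled A880STM1K and A880STM1 therefore go against their label in this gene, and since all 4 of them do, no comparison of those strains can be made without them. STM1 itself gave 8697 and 8143 on A880STM1K, 9441 and 5027 on A880STM1, 2960.3 and 3096 on A880 and 2043 and 2566 on BY4741 arrays. URA3, a common selection marker, gave 1850.2 and 1384 on A880STM1K, 4956 and 4315 on A880STM1, 5062 and 5537 on A880 and 3.32 and 1.14 on BY4741. Both transformed strains thus carried more STM1 signal than the others. The summed signal of 7 haploid-specific genes was 957 to 1247 on A880STM1K and 588 to 698 on A880STM1 arrays, against 5189 to 5225 on A880 and 4336 to 4408 on BY4741. For 7 genes of a cells, the mating type of BY4741, the sums were 842 to 940.2 on A880STM1K, 675 to 761 on A880STM1, 2942 to 3367 on A880 and 3070 to 3073 on BY4741. For 4 alpha-cell genes they were 856 to 911 on A880STM1K, 375 to 447 on A880STM1, 440.0 to 484 on A880 and 642 to 721 on BY4741. Haploid-specific and a-cell sums were thus low in both transformed strains. No marker of these lists was below background on both arrays of a strain. Replicates differed by a median of 0.39 log2 units on A880STM1K and 0.46 on A880STM1 arrays, against 0.12 on A880 and 0.14 on BY4741. The median signal ratio between the 3′ and 5′ probe sets of 7 control transcripts, a measure of RNA integrity, was 1.68 to 1.75 on A880STM1K, 1.43 to 1.62 on A880STM1, 1.57 to 1.60 on A880 and 1.31 to 1.42 on BY4741. These differences run with the strains, and their part in the results below was not tested.

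All 41 decay genes lay above background on all 8 arrays, with signals between 62.7 and 5306 where background was at most 8.40. All 41 therefore passed the filter on low signals. Of all 5498 yeast probe sets 5496 passed it and 5459 lay above background on all 8 arrays. Passing therefore does not set the decay genes apart. By label, A880STM1K against A880STM1 asks about the substitution, A880STM1K and A880STM1 against A880 about the added gene, and A880 against BY4741 about the deletion. In A880STM1K, 4 of the 41 decay genes rose and 11 fell relative to A880, or 36.6%. Of all tested probe sets 47.1% were called there, 19.1% higher and 28.0% lower. Relative to A880STM1, 10 rose and 4 fell in A880STM1K, or 34.1%, beside a background of 35.0%, with 17.9% higher and 17.1% lower. Relative to BY4741, 5 rose and 12 fell in A880STM1K, or 41.5%, beside 49.5% of all probe sets, 21.2% higher and 28.3% lower. These shares were near or below those of the array as a whole, so the number of calls does not set the decay genes apart. With 1 array left out, fewer were called against A880 without either A880 array, and fewer against BY4741 without either BY4741 array. More were called in both comparisons without either A880STM1 array. The number called over all probe sets moved in the same direction in these fits. Without 1 A880STM1K array the decay genes and all probe sets did not always move together. With only the 4 arrays compared, 4 were called against A880STM1, and with weights per group 3. Of all 5496 probe sets, 1179 and 794 were called in those fits.

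In A880STM1, 1 rose and 9 fell relative to A880, or 24.4%, beside a background of 19.9%, with 6.82% higher and 13.1% lower. Relative to BY4741, none rose and 2 fell in A880STM1, or 4.88%, beside 11.7% of all probe sets, 5.40% higher and 6.30% lower. In A880, none rose and 2 fell relative to BY4741, again 4.88%, beside 13.9%, with 7.71% higher and 6.19% lower. The shares against BY4741 were below the background and that against A880 was near it. These counts changed with the arrays in the fit. Leaving out an array of a strain not compared keeps each log2 change as it is and alters only its error and p. In A880STM1 against A880 fewer were called without either A880 array, either BY4741 array or A880STM1 replicate 1, and more without A880STM1 replicate 2. In A880STM1 against BY4741 fewer were called without either BY4741 array, either A880 array or A880STM1 replicate 1. More were called there without A880STM1 replicate 2 or either A880STM1K array. In A880 against BY4741 fewer were called without 1 of its own arrays, and more without any 1 array of the transformed strains. The number called over all probe sets moved in the same direction in each of these fits. Comparisons that name the same strain share its 2 arrays and are not independent of each other.

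The count for A880 against BY4741 depended on which arrays shared the estimate of spread. With only their own 4 arrays in the fit, 14 decay genes were called higher and 11 lower, beside 29.6% and 24.8% of all probe sets, or 54.4% in all. By roles, 6 of 11 exosome genes were then called higher and 1 lower, 3 of 4 Ski genes higher and 1 lower, and 1 of 7 decapping genes higher and 5 lower. Weights per group also gave 25. The smallest p among those called higher were for SKI6 at log2 0.75 ± 0.11 (adjusted p = 0.00163) and SKI8 at 0.81 ± 0.12 (adjusted p = 0.00203), and among those lower for DHH1 at -1.06 ± 0.13 (adjusted p = 0.000941) and NMD2 at -0.72 ± 0.12 (adjusted p = 0.00304). These sizes are those of the fit of all 8 arrays, which has the wider errors. Calls below are from that fit unless another is named.

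**Figure D1:**
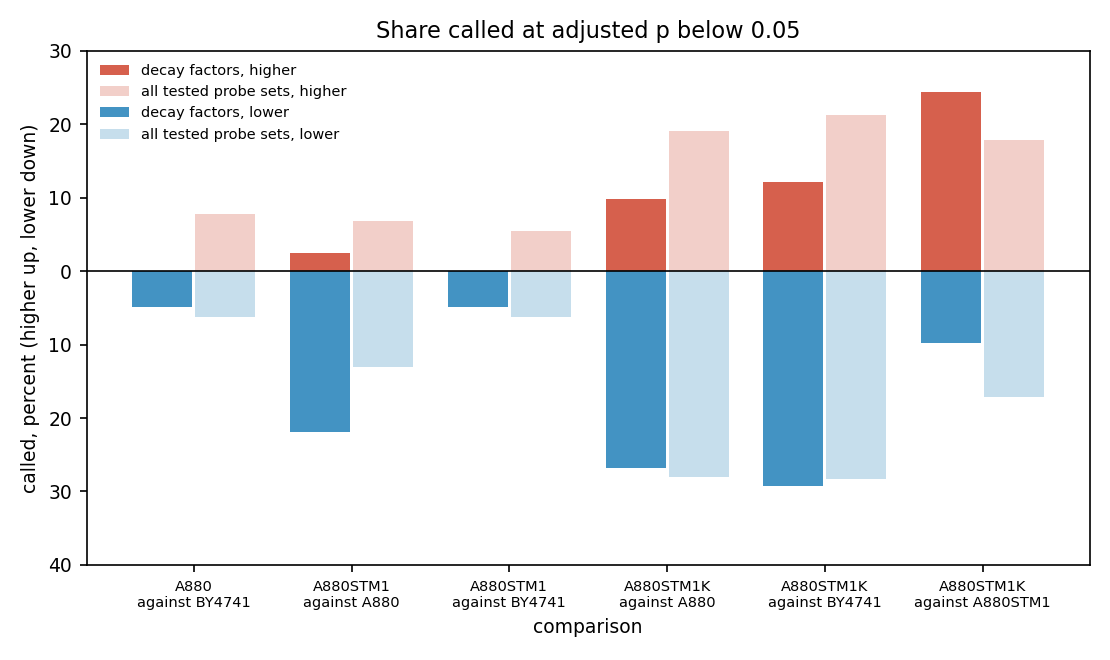
Percent of the 41 decay genes (solid bars) and of all 5496 tested probe sets (pale bars) called higher (up) or lower (down) at adjusted p below 0.05 in each of 6 comparisons. In the fit of all 8 arrays the decay genes were called about as often as the array as a whole or less often, apart from those called lower in A880STM1 against A880, 9 of 41 beside 13.1%, and those higher in A880STM1K against A880STM1, 10 of 41 beside 17.9%.

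The median change of the 41 genes was log2 -0.36 in A880STM1K against A880, where that of all probe sets was -0.17, and -0.49 in A880STM1 against A880, where that of all was -0.27. It was log2 0.04 beside 0.10 in A880STM1K against A880STM1, and 0.01 beside 0.02 in A880 against BY4741. Against BY4741 the median was log2 -0.25 in A880STM1K, beside -0.11 over all probe sets, and -0.43 in A880STM1, beside -0.24. The deposited scaling left the transformed strains with lower typical signals. Setting all arrays to equal medians moved the median of all probe sets to log2 0.18 in A880STM1K against A880 and 0.12 in A880STM1 against A880, and quantile normalization moved them to -0.01 and -0.08. The split of the decay genes moved with the scale. In A880STM1K against A880, 10 were called higher and 6 lower with equal medians and 7 higher and 12 lower with quantile normalization. Of all 5496 probe sets 2709 and 2944 were called there. In A880STM1 against A880 the splits were 1 higher and 2 lower, and 2 higher and 5 lower, beside 951 and 1071 of all probe sets. A880 against BY4741 had 4 higher and 2 lower with quantile normalization. A880STM1 against BY4741 had 1 higher and 2 lower with equal medians and 2 higher and 4 lower with quantile normalization. A880STM1K against BY4741 had 6 higher and 9 lower with equal medians. Of all probe sets 1382, 551, 938 and 2795 were called in these fits, in that order. The split of all probe sets by direction was not counted under these scalings. No call of a single decay gene turned its direction under either scaling.

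Of the 41 genes, 29 were called in at least 1 comparison, 11 of them in 3 or more. The matching numbers over all probe sets were not counted. Up to 49.5% of all probe sets were called in a single comparison, so these counts do not set the decay genes apart. LSM7 was called in 4 comparisons, the most of any. The strain with the highest mean signal was A880STM1K for 12 genes, A880STM1 for 1, A880 for 13 and BY4741 for 15. The lowest mean lay in A880STM1K for 15 genes, in A880STM1 for 18, in A880 for 3 and in BY4741 for 5. These strain counts are on the deposited scale, where the median of all probe sets was log2 -0.27 in A880STM1 against A880. They were not set beside the same counts over all probe sets.

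**Figure D2:**
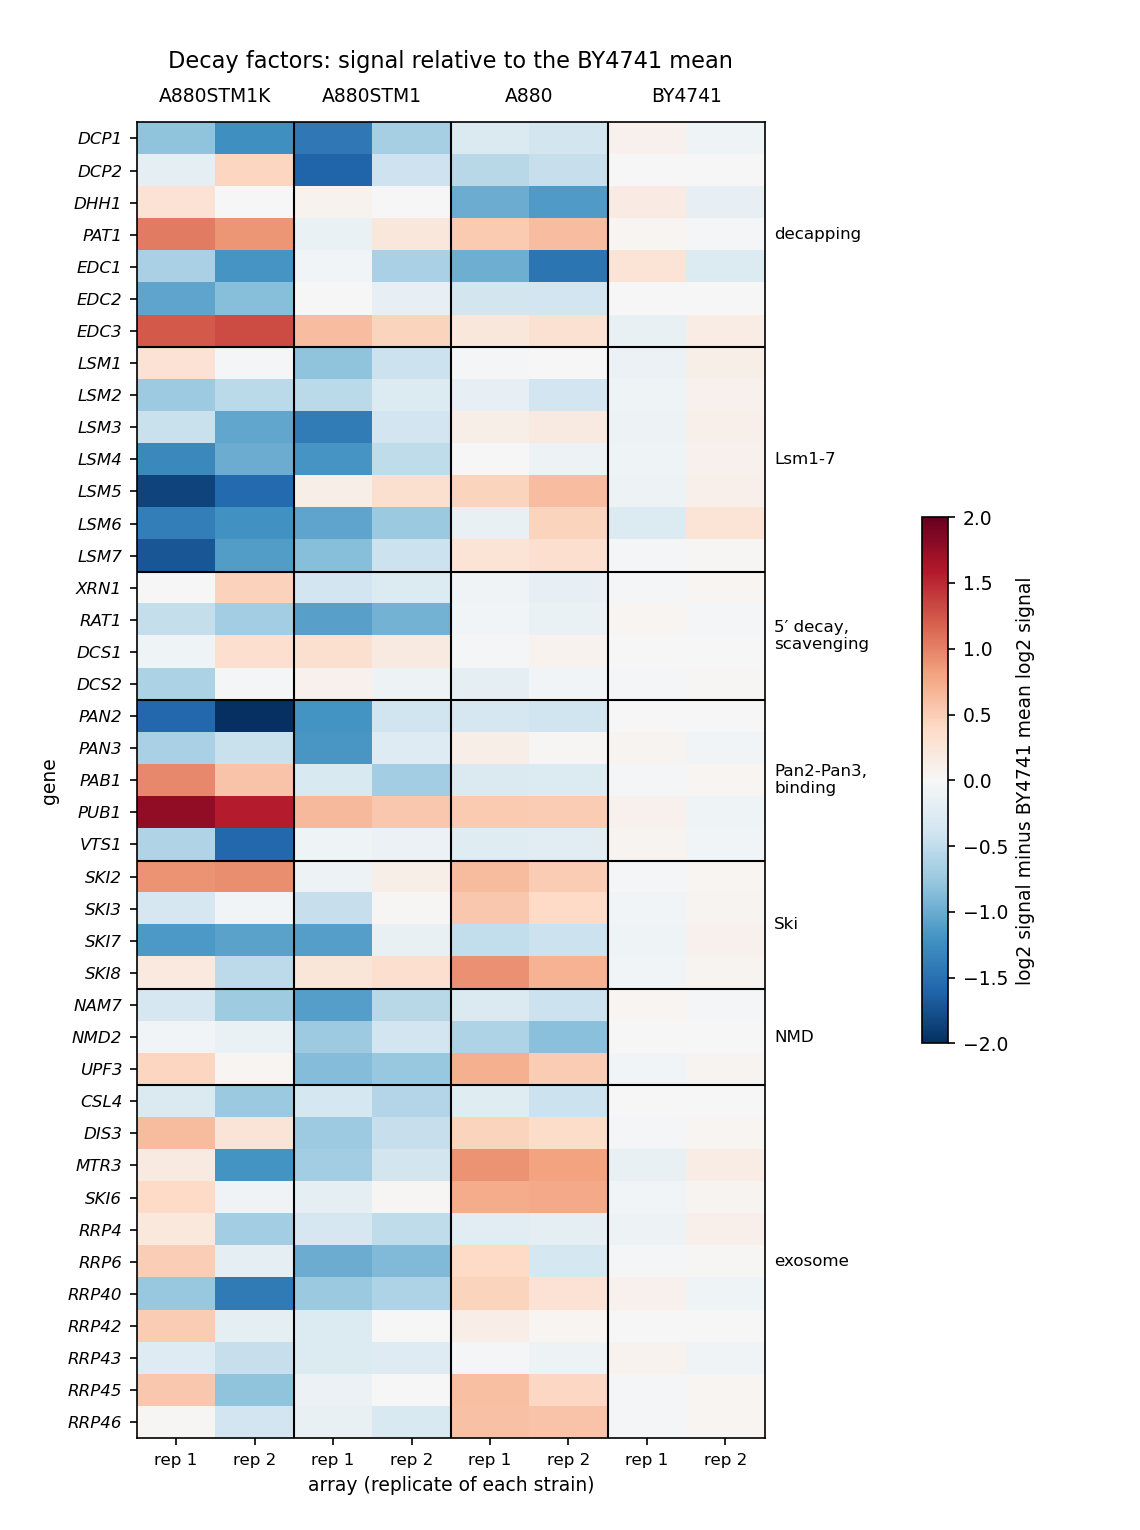
Signal of each of the 41 decay genes (rows, grouped by role) on each of 8 arrays (columns, by strain), as log2 units above (red) or below (blue) the mean of the 2 BY4741 arrays. LSM5, LSM6, LSM7 and PAN2 are blue on both A880STM1K arrays, PUB1 and EDC3 are red there, and DHH1 is blue on both A880 arrays.

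Among the 7 decapping genes, both A880STM1K arrays lay above all others for PAT1 and EDC3 and below all others for EDC2. By mean signal, DHH1 and DCP2 were also highest in A880STM1K and DCP1 also lowest, but with overlap. In that strain 2 rose and 1 fell relative to A880, 3 rose and 1 fell relative to A880STM1, and 2 rose and 2 fell relative to BY4741. Of all probe sets 47.1% were called against A880, 35.0% against A880STM1 and 49.5% against BY4741, so counts of this size among 7 genes are no result about the list. DHH1 (YDL160C), the gene of a DEAD-box helicase that activates decapping and represses translation, gave 2332 and 1902 on the A880STM1K arrays, 2011 and 1921 on A880STM1, 963 and 874 on A880 and 2136 and 1718 on BY4741. Both A880 arrays lay below all others, and the remaining strains overlapped. DHH1 fell by 1.06 ± 0.22 log2 units (adjusted p = 0.0116) in A880 against BY4741. Relative to A880 it rose by 1.20 ± 0.22 log2 units (adjusted p = 0.00148) in A880STM1K and rose by 1.10 ± 0.22 log2 units (adjusted p = 0.0106) in A880STM1, both set against the same 2 A880 arrays. The A880STM1K value stayed called whichever array was left out and on both other scales. The call against BY4741 was lost without either A880 array or either BY4741 array (adjusted p between 0.0631 and 0.176), and that of A880STM1 was lost without A880STM1 replicate 1 or either A880 array (adjusted p between 0.051 and 0.12).

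EDC3 (YEL015W), which encodes a scaffold that binds Dcp2, gave 854 and 907 on the A880STM1K arrays, 564 and 499 on A880STM1, 427 and 452 on A880 and 329 and 406 on BY4741. The 4 strains did not overlap and ran from A880STM1K, the highest, to BY4741, the lowest. EDC3 in A880STM1K rose by 1.27 ± 0.24 log2 units (adjusted p = 0.00155) relative to BY4741, a call that held with any 1 array left out. It rose by 1.00 ± 0.24 log2 units (adjusted p = 0.00618) relative to A880 and rose by 0.73 ± 0.24 log2 units (adjusted p = 0.0359) relative to A880STM1. The call against A880 was lost without either A880 array (adjusted p = 0.0697 and 0.0521). That against A880STM1 was lost without A880STM1K replicate 2, A880STM1 replicate 2, either A880 array or either BY4741 array, with only the 4 arrays compared and with weights per group (adjusted p between 0.0595 and 0.225).

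EDC2 (YER035W), which encodes a small RNA-binding enhancer of decapping, gave 2529.8 and 2918 on the A880STM1K arrays, 5299.6 and 4703 on A880STM1, 4087 and 4048 on A880 and 5306 and 5236 on BY4741. Both A880STM1K arrays lay below all others, and A880STM1 and BY4741 overlapped. In A880STM1K EDC2 fell by 0.96 ± 0.20 log2 units (adjusted p = 0.00263) relative to BY4741, fell by 0.88 ± 0.20 log2 units (adjusted p = 0.00677) relative to A880STM1 and fell by 0.58 ± 0.20 log2 units (adjusted p = 0.0326) relative to A880. The first call was lost at equal array medians (adjusted p = 0.0737) and the second with only the 4 arrays compared and with weights per group (adjusted p = 0.105 and 0.0527). The third, the smallest, was lost without A880STM1K replicate 1, either A880 array or either BY4741 array, at equal array medians and without the intensity trend (adjusted p between 0.0544 and 0.542).

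PAT1 (YCR077C), the gene of the factor that joins the Lsm1-7 ring to the decapping enzyme, gave 2239.8 and 2001 on the A880STM1K arrays, 997 and 1268 on A880STM1, 1563 and 1663 on A880 and 1112 and 1065 on BY4741. A880STM1K was again the highest, A880 came next, and A880STM1 overlapped with BY4741. PAT1 in A880STM1K rose by 0.96 ± 0.21 log2 units (adjusted p = 0.00395) relative to BY4741 and rose by 0.91 ± 0.21 log2 units (adjusted p = 0.00807) relative to A880STM1. The first stayed called whichever array was left out and on both other scales. The second was lost with only the 4 arrays compared and with weights per group (adjusted p = 0.0706 and 0.0665). Against A880 the change was not called, at log2 0.39, 95% interval -0.08 to 0.86 (adjusted p = 0.15).

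The decapping enzyme itself moved less evenly. DCP2, the catalytic subunit, gave 866 and 1315 on the A880STM1K arrays, 323 and 739 on A880STM1, 664 and 712 on A880 and 975 and 985 on BY4741. DCP2 in A880STM1K rose by 1.13 ± 0.36 log2 units (adjusted p = 0.0331) relative to A880STM1, lost without A880STM1K replicate 2 or A880STM1 replicate 1 and with weights per group (adjusted p between 0.0911 and 0.168). The 2 A880STM1 arrays, at 323 and 739, differed more from each other than the A880 arrays from the BY4741 arrays. DCP1, its partner subunit, gave 610.3 and 455 on the A880STM1K arrays, 396 and 672 on A880STM1, 873 and 826 on A880 and 1133 and 1005 on BY4741. Both transformed strains lay below A880 and BY4741 and overlapped with each other. DCP1 fell by 1.02 ± 0.29 log2 units (adjusted p = 0.0138) in A880STM1K and fell by 1.05 ± 0.29 log2 units (adjusted p = 0.0437) in A880STM1, both relative to BY4741. The A880STM1K call was lost without A880STM1K replicate 2 or either BY4741 array (adjusted p between 0.0538 and 0.0943), and the A880STM1 call without A880STM1 replicate 1, either A880 array or either BY4741 array, without the intensity trend, with only the 4 arrays compared and with weights per group (adjusted p between 0.0509 and 0.249). EDC1, a second small decapping enhancer, gave 187 and 128 on the A880STM1K arrays, 279.6 and 186 on A880STM1, 148 and 106 on A880 and 354 and 239.8 on BY4741. A880 was lowest but overlapped with A880STM1K. EDC1 fell by 1.22 ± 0.36 log2 units (adjusted p = 0.0486) in A880 against BY4741, and this was lost without either A880 array or either BY4741 array and after quantile normalization (adjusted p between 0.0522 and 0.399). Array values of DCP1, DCP2 and EDC1 are shown although they lie outside the rule for named genes, and were chosen after their values were seen.

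**Figure D3:**
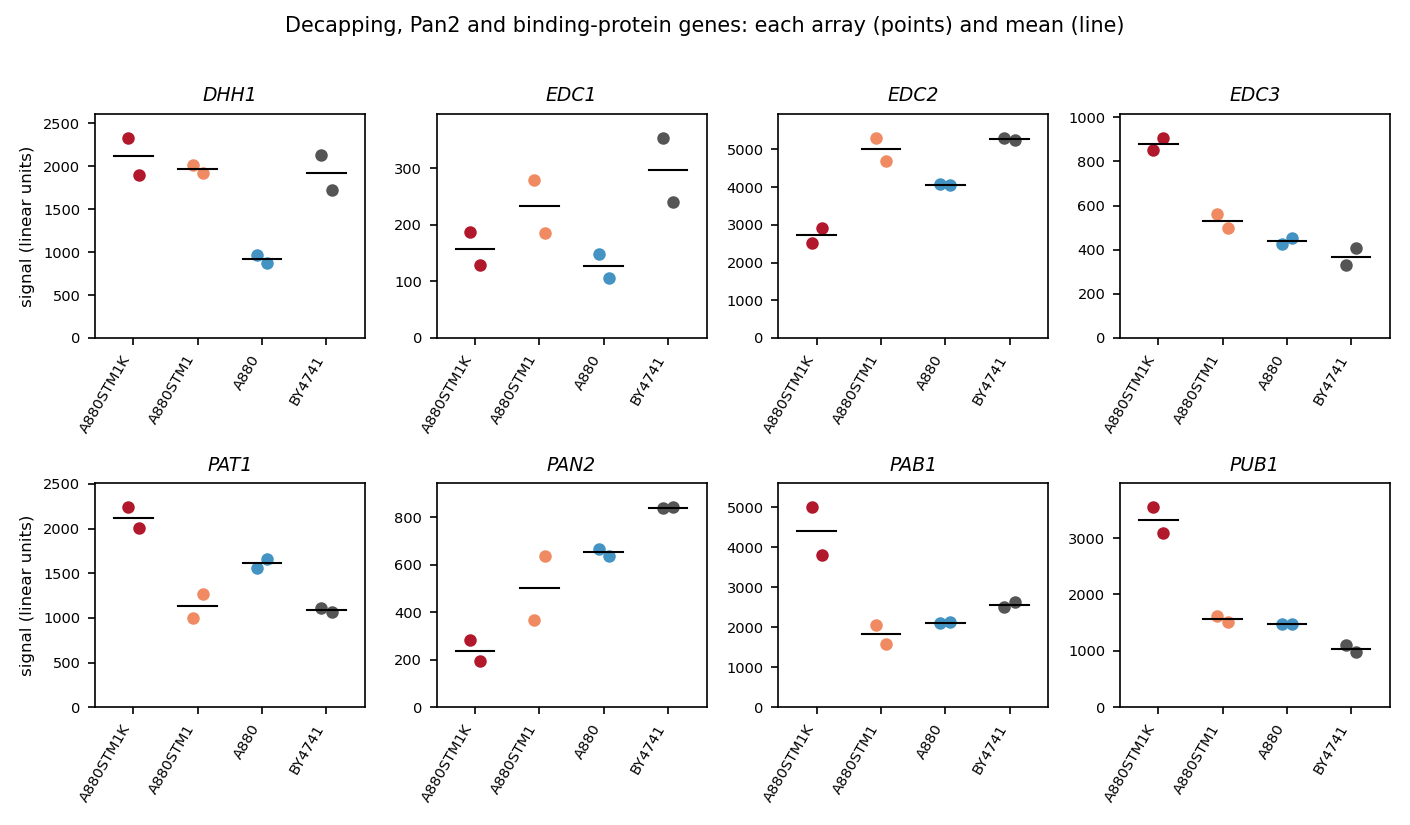
Signal in linear units on each array (points) and mean of the 2 arrays (lines) for 5 decapping genes, PAN2, PAB1 and PUB1, with the strains A880STM1K, A880STM1, A880 and BY4741 from left to right and every axis starting at 0. EDC3, PAT1, PAB1 and PUB1 are highest in A880STM1K, EDC2 and PAN2 are lowest there, and DHH1 is lowest in A880.

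Most transcripts of the Lsm1-7 ring, whose subunits together bind the shortened tail of a message, were lower in A880STM1K. In that strain 5 of 7 fell and none rose relative to A880, beside 28.0% of all probe sets called lower, and 5 of 7 fell and none rose relative to BY4741, beside 28.3%. Relative to A880STM1, 2 fell and 1 rose, beside 17.1% of all probe sets called lower and 17.9% higher. In A880STM1 against BY4741 none was called, beside 11.7% of all probe sets, and the median was log2 -0.63 beside -0.24. In A880STM1 against A880, 2 of 7 fell and none rose, beside 13.1% lower and 6.82% higher. All 7 changes were below 0 on the deposited scale, and the median was log2 -0.79 beside -0.27 for all probe sets. With equal array medians 2 of 7 were above 0 there and none was called, and with quantile normalization 1 was called lower. In A880STM1K the ring's median change was log2 -1.09 against A880, where that of all probe sets was -0.17, and -1.14 against BY4741, where that of all was -0.11. With equal array medians 4 fell in A880STM1K and 1, LSM1, was called higher against A880, and the ring's median was -0.74. LSM5 (YER146W) gave 199 and 246 on the A880STM1K arrays, 779.9 and 899 on A880STM1, 986 and 1104 on A880 and 671 and 775 on BY4741. Both A880STM1K arrays lay far below all others. LSM5 in A880STM1K fell by 2.23 ± 0.24 log2 units (adjusted p = 8.8e-05) relative to A880, fell by 1.92 ± 0.24 log2 units (adjusted p = 0.000266) relative to A880STM1 and fell by 1.70 ± 0.24 log2 units (adjusted p = 0.000296) relative to BY4741. These calls held under all 17 alternatives run. In A880STM1 LSM5 was not called relative to A880, at log2 -0.32, 95% interval -0.85 to 0.21 (adjusted p = 0.337).

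LSM7 (YNL147W) gave 431 and 648 on the A880STM1K arrays, 784 and 1049 on A880STM1, 1706 and 1785 on A880 and 1384 and 1430.1 on BY4741. The strains did not overlap, with A880STM1K lowest and A880 highest. LSM7 in A880STM1K fell by 1.72 ± 0.26 log2 units (adjusted p = 0.000524) relative to A880 and fell by 1.41 ± 0.26 log2 units (adjusted p = 0.00127) relative to BY4741, both kept with any 1 array left out and under both scalings. It fell by 0.78 ± 0.26 log2 units (adjusted p = 0.037) relative to A880STM1, lost without A880STM1K replicate 1, A880STM1 replicate 2, either A880 array or either BY4741 array, without the intensity trend, with only the 4 arrays compared and with weights per group (adjusted p between 0.0521 and 0.178). In A880STM1 it fell by 0.94 ± 0.26 log2 units (adjusted p = 0.0302) relative to A880, lost without A880STM1 replicate 1, either A880 array or either BY4741 array and at equal array medians (adjusted p between 0.0601 and 0.185).

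LSM6 (YDR378C) gave 389.6 and 437 on the A880STM1K arrays, 486 and 602 on A880STM1, 912 and 1375 on A880 and 837 and 1224 on BY4741. A880STM1K was lowest and A880STM1 next, while A880 and BY4741 overlapped and their replicates lay well apart. LSM6 in A880STM1K fell by 1.44 ± 0.29 log2 units (adjusted p = 0.00244) relative to A880, kept with any 1 array left out, and fell by 1.29 ± 0.29 log2 units (adjusted p = 0.00385) relative to BY4741, lost without BY4741 replicate 2 (adjusted p = 0.0588). In A880STM1 it fell by 1.05 ± 0.29 log2 units (adjusted p = 0.0308) relative to A880, lost without A880STM1 replicate 1 or either A880 array, after quantile normalization, at equal array medians and with weights per group (adjusted p between 0.0784 and 0.264). LSM4 (YER112W) gave 473 and 580.3 on the A880STM1K arrays, 512 and 812 on A880STM1, 1161 and 1076 on A880 and 1089 and 1226 on BY4741. The 2 transformed strains overlapped and both lay below A880 and BY4741. LSM4 in A880STM1K fell by 1.09 ± 0.27 log2 units (adjusted p = 0.00685) relative to A880, lost without A880 replicate 1 (adjusted p = 0.0599), and fell by 1.14 ± 0.27 log2 units (adjusted p = 0.00504) relative to BY4741, lost without BY4741 replicate 2 (adjusted p = 0.0504).

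The remaining subunits differed less, and their array values were chosen after they were seen. LSM1, whose product is the only subunit of the cytoplasmic ring that the nuclear ring lacks, gave 1070.3 and 859.6 on the A880STM1K arrays, 498 and 650.1 on A880STM1, 850.0 and 874 on A880 and 808 and 940.1 on BY4741. A880STM1 was the lowest and the other strains overlapped. LSM1 was not called in A880STM1K against A880, at log2 0.15, 95% interval -0.38 to 0.68 (adjusted p = 0.62). It rose by 0.75 ± 0.24 log2 units (adjusted p = 0.0329) in A880STM1K relative to A880STM1, lost without A880STM1K replicate 1, A880STM1 replicate 1, either A880 array or either BY4741 array, with only the 4 arrays compared and with weights per group (adjusted p between 0.0669 and 0.189). LSM3 in A880STM1K fell by 0.90 ± 0.34 log2 units (adjusted p = 0.0488) relative to A880, lost without A880STM1K replicate 2, either A880 array or either BY4741 array, after quantile normalization, at equal array medians and without the intensity trend (adjusted p between 0.0603 and 0.217). LSM3 replicates lay apart in both transformed strains. LSM2 in A880STM1K fell by 0.63 ± 0.21 log2 units (adjusted p = 0.0284) relative to BY4741, lost without A880STM1K replicate 1, either A880 array or either BY4741 array and at equal array medians (adjusted p between 0.0679 and 0.213). Signals of LSM3 spanned 321 to 954 over the 8 arrays and those of LSM2 1939 to 3418. For LSM2 the A880STM1K arrays were the lowest and the BY4741 arrays the highest. On the A880STM1K arrays the log2 ratio of LSM5 to LSM1, relative to the BY4741 mean, was -2.15 and -1.53, against 0.92 and 0.74 on A880STM1 and 0.49 and 0.61 on A880 arrays. These 2 genes were paired after their values were seen, and the ratio was not tested.

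The Lsm2 to Lsm7 proteins also form a nuclear ring with Lsm8, which binds U6 RNA of the spliceosome, and LSM8 was read beside the members. LSM8 (YJR022W) gave 59.0 and 64.5 on the A880STM1K arrays, 171 and 275 on A880STM1, 568 and 452 on A880 and 285 and 297 on BY4741. No 2 strains overlapped, and the A880STM1K arrays were far below the rest. LSM8 in A880STM1K fell by 3.04 ± 0.32 log2 units (adjusted p = 7.31e-05) relative to A880, fell by 1.81 ± 0.32 log2 units (adjusted p = 0.00169) relative to A880STM1 and fell by 2.24 ± 0.32 log2 units (adjusted p = 0.000303) relative to BY4741. The calls of A880STM1K held under all 17 alternatives. In A880STM1 it fell by 1.22 ± 0.32 log2 units (adjusted p = 0.0254) relative to A880, lost without A880STM1 replicate 1, either A880 array or either BY4741 array, after quantile normalization and with weights per group (adjusted p between 0.0502 and 0.215).

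**Figure D4:**
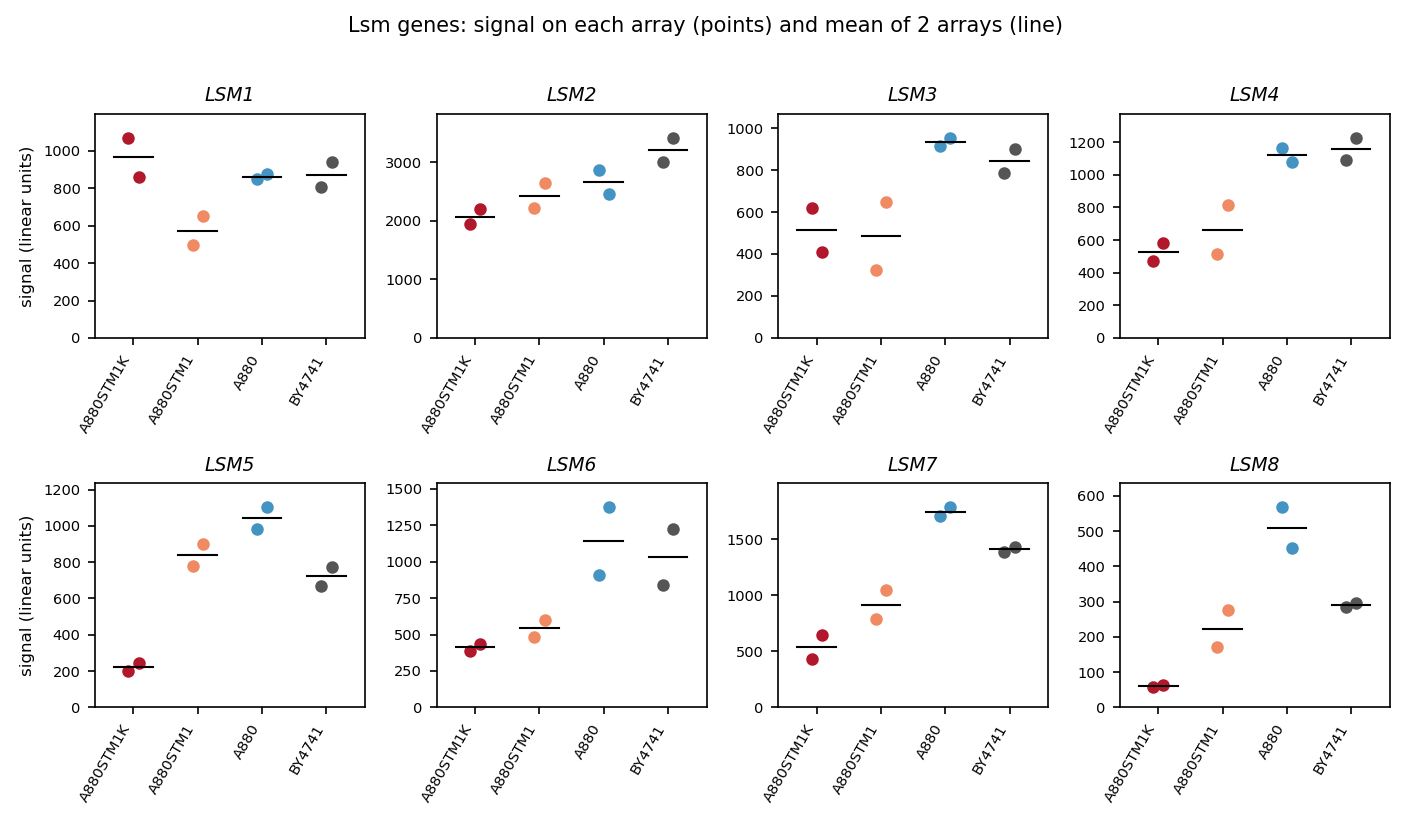
Signal in linear units of LSM1 to LSM7 and of LSM8 on each array (points), with the mean of 2 arrays as a line, for A880STM1K, A880STM1, A880 and BY4741 from left to right and every axis from 0. LSM5 and LSM8 are lowest on the A880STM1K arrays, at 199 and 246 and at 59.0 and 64.5, while LSM1 is not.

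Of the 4 exonuclease and scavenging genes, the nuclear one alone was called in the fit of all 8 arrays on the deposited scale. Its comparisons were A880STM1 against BY4741 and A880, and A880STM1K against BY4741, beside 11.7%, 19.9% and 49.5% of all probe sets. With quantile normalization 1 of the 4 was called higher in A880STM1K against A880STM1 and 1 lower in A880STM1K against A880. At equal array medians 1 was called higher in A880STM1K against A880. RAT1 (YOR048C), which encodes the nuclear 5′ to 3′ exonuclease that also acts in transcription termination, gave 685 and 588 on the A880STM1K arrays, 451 and 493 on A880STM1, 916 and 871 on A880 and 975 and 932 on BY4741. The strains did not overlap, and A880STM1 was lowest, followed by A880STM1K, A880 and BY4741. RAT1 in A880STM1 fell by 1.02 ± 0.22 log2 units (adjusted p = 0.0197) relative to BY4741 and fell by 0.92 ± 0.22 log2 units (adjusted p = 0.0203) relative to A880, and in A880STM1K it fell by 0.59 ± 0.22 log2 units (adjusted p = 0.0466) relative to BY4741. The calls in A880STM1 were lost without A880STM1 replicate 1, either A880 array or either BY4741 array (adjusted p between 0.0567 and 0.186) against BY4741, and without A880STM1 replicate 1, either A880 array or either BY4741 array and at equal array medians (adjusted p between 0.0537 and 0.181) against A880. That in A880STM1K was lost without A880STM1K replicate 2, either A880 array or either BY4741 array, after quantile normalization, at equal array medians, without the intensity trend, with the replicate block, with only the 4 arrays compared and with weights per group (adjusted p between 0.0513 and 0.238). XRN1, which encodes the main cytoplasmic exonuclease of decapped messages, had signals of 1209 to 2174 over the 8 arrays and was called in no comparison. Its change in A880 against BY4741 was log2 -0.12, 95% interval -0.61 to 0.37 (adjusted p = 0.755), and in A880STM1K against A880STM1 it was log2 0.56, 95% interval 0.07 to 1.05 (adjusted p = 0.0712). DCS1, the scavenger that hydrolyses caps left by the exosome, and its relative DCS2 were called in none either, with signals of 3169 to 4220 and 3010 to 4955. The changes of DCS1 lay between log2 -0.13 and 0.25 over the 6 comparisons.

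In A880STM1K the genes of 2 RNA-binding proteins, PUB1 and PAB1, rose while PAN2 fell. Of the 5 genes for Pan2-Pan3 and message-binding proteins, 2 rose and 1 fell relative to A880, 2 rose and 1 fell relative to A880STM1, and 2 rose and 2 fell relative to BY4741, beside 47.1%, 35.0% and 49.5% of all probe sets called in these comparisons. PUB1 (YNL016W), the gene of a poly(U)-binding protein that stabilises some messages and enters stress granules, gave 3547 and 3086 on the A880STM1K arrays, 1623 and 1509 on A880STM1, 1482 and 1477 on A880 and 1105 and 973 on BY4741. No 2 strains overlapped, and A880STM1K lay far above the rest. PUB1 in A880STM1K rose by 1.67 ± 0.20 log2 units (adjusted p = 0.000125) relative to BY4741, rose by 1.16 ± 0.20 log2 units (adjusted p = 0.00125) relative to A880 and rose by 1.08 ± 0.20 log2 units (adjusted p = 0.00257) relative to A880STM1. All 3 calls survived leaving out any array and either other scaling.

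PAB1 (YER165W), which encodes the main poly(A)-binding protein, gave 5008 and 3806 on the A880STM1K arrays, 2069 and 1582 on A880STM1, 2100.4 and 2131 on A880 and 2502 and 2636 on BY4741. A880STM1K was highest, followed by BY4741, A880 and A880STM1, with no overlap. PAB1 in A880STM1K rose by 1.27 ± 0.22 log2 units (adjusted p = 0.00186) relative to A880STM1, rose by 1.05 ± 0.22 log2 units (adjusted p = 0.00375) relative to A880 and rose by 0.77 ± 0.22 log2 units (adjusted p = 0.0164) relative to BY4741. The first 2 calls held with any 1 array left out and the third was lost without A880STM1K replicate 1 or either BY4741 array (adjusted p between 0.0664 and 0.109).

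PAN2 (YGL094C), the gene of the nuclease subunit of the Pan2-Pan3 deadenylase, gave 282 and 195 on the A880STM1K arrays, 367 and 638 on A880STM1, 667 and 638 on A880 and 839 and 844 on BY4741. A880STM1K was lowest and BY4741 highest, and the 2 A880STM1 arrays lay far apart. PAN2 in A880STM1K fell by 1.84 ± 0.31 log2 units (adjusted p = 0.00082) relative to BY4741 and fell by 1.48 ± 0.31 log2 units (adjusted p = 0.00318) relative to A880, both kept with any 1 array left out and under both scalings. It fell by 1.04 ± 0.31 log2 units (adjusted p = 0.024) relative to A880STM1, lost without A880STM1K replicate 2 or A880STM1 replicate 2, with only the 4 arrays compared and with weights per group (adjusted p between 0.0916 and 0.108). PAN3, the gene of its partner subunit, had signals of 540.0 to 1312 and was called in no comparison. Its change in A880STM1K against A880 was log2 -0.62, 95% interval -1.25 to 0.02 (adjusted p = 0.101). The ratio of PAN2 to PAN3 was log2 -0.92 and -1.66 from the BY4741 mean on the A880STM1K arrays, -0.03 and -0.14 on A880STM1 and -0.45 and -0.41 on A880. That pair too was chosen after its values were seen and was not tested.

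VTS1 (YOR359W), which encodes a protein that brings CCR4-NOT to messages with certain stem-loops, gave 122 and 62.7 on the A880STM1K arrays, 175 and 171 on A880STM1, 156 and 159 on A880 and 192 and 179 on BY4741. A880STM1K was lowest, and its 2 arrays lay apart. VTS1 in A880STM1K fell by 1.08 ± 0.36 log2 units (adjusted p = 0.0272) relative to BY4741, lost without A880STM1K replicate 2 or either BY4741 array and with only the 4 arrays compared (adjusted p between 0.0686 and 0.146).

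Of the 4 Ski genes, SKI2 rose and SKI7 and SKI8 fell in A880STM1K, each in some of its comparisons, and SKI3 was called in none. Relative to BY4741 1 rose and 1 fell, relative to A880STM1 1 rose, and relative to A880 1 fell, where 49.5%, 35.0% and 47.1% of all probe sets were called. SKI2 (YLR398C), the gene of the helicase that threads RNA into the cytoplasmic exosome, gave 951 and 967 on the A880STM1K arrays, 471 and 548 on A880STM1, 791 and 725 on A880 and 495 and 520.0 on BY4741. A880STM1K was highest and A880 next, and A880STM1 overlapped with BY4741. SKI2 in A880STM1K rose by 0.92 ± 0.22 log2 units (adjusted p = 0.00634) relative to BY4741 and rose by 0.92 ± 0.22 log2 units (adjusted p = 0.0099) relative to A880STM1. The first was lost without either BY4741 array (adjusted p = 0.0656 and 0.0516) and the second with only the 4 arrays compared and with weights per group (adjusted p = 0.101 and 0.0881). SKI7 (YOR076C), whose product links the Ski complex to the exosome, gave 429 and 451 on the A880STM1K arrays, 443 and 860.2 on A880STM1, 673 and 702 on A880 and 896 and 1005 on BY4741. BY4741 lay above the overlapping ranges of A880STM1K and A880STM1. SKI7 in A880STM1K fell by 1.11 ± 0.30 log2 units (adjusted p = 0.0115) relative to BY4741, lost without BY4741 replicate 2 (adjusted p = 0.0806).

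SKI8 (YGL213C), which encodes a subunit that also acts in meiotic recombination, gave 552 and 337 on the A880STM1K arrays, 575 and 611 on A880STM1, 913 and 783 on A880 and 467 and 501 on BY4741. A880 was highest, and A880STM1K overlapped with BY4741. SKI8 in A880STM1K fell by 0.97 ± 0.28 log2 units (adjusted p = 0.0151) relative to A880, lost without A880STM1K replicate 2 or either A880 array and at equal array medians (adjusted p between 0.0539 and 0.125). SKI3, the gene of the scaffold subunit, had signals of 454 to 906 and was called in no comparison, with log2 -0.68, 95% interval -1.24 to -0.13 (adjusted p = 0.0746) in A880STM1 against A880, its largest change.

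Of the 3 genes of nonsense-mediated decay, UPF3 alone was called in the fit of all 8 arrays on the deposited scale. It was called in 2 comparisons, in which 19.9% and 35.0% of all probe sets were called. UPF3 (YGR072W), which encodes a Upf protein, gave 547 and 418 on the A880STM1K arrays, 223 and 240.3 on A880STM1, 663 and 578 on A880 and 390.2 and 423 on BY4741. A880STM1 was lowest and A880 highest, and A880STM1K overlapped with BY4741. UPF3 fell by 1.42 ± 0.26 log2 units (adjusted p = 0.00697) in A880STM1 relative to A880, and rose by 1.05 ± 0.26 log2 units (adjusted p = 0.0101) in A880STM1K relative to A880STM1. The first was lost without either A880 array (adjusted p = 0.0973 and 0.0637), the second with only the 4 arrays compared and with weights per group (adjusted p = 0.109 and 0.0946). NAM7, the gene of Upf1, had signals of 639 to 1413 and NMD2, the gene of Upf2, 419.6 to 751. Neither was called in that fit, and the change of NMD2 in A880 against BY4741 was log2 -0.72, 95% interval -1.25 to -0.20 (adjusted p = 0.0659). In that comparison 1 of the 3 genes was called lower under either other scaling. With only its own 4 arrays 1 was called higher and 2 lower, beside 29.6% and 24.8% of all probe sets. The other scalings also called genes of this list in further comparisons.

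Of the 11 exosome genes, 5 fell and none rose in A880STM1 relative to A880, on the deposited scale. That is 45.5% of the list, beside 13.1% of all probe sets called lower, and the median change was log2 -0.81 where that of all probe sets was -0.27. All 11 changes were below 0 on the deposited scale, while 4 of 11 were above 0 with quantile normalization, and 4 at equal array medians, where 2 and 1 remained called lower. In A880STM1K 3 fell and none rose relative to A880, none fell and 2 rose relative to A880STM1, and 1 fell relative to BY4741. These counts stand beside 28.0% of all probe sets called lower against A880, 17.9% higher against A880STM1 and 28.3% lower against BY4741, and are near or below them. In A880STM1 against BY4741 none was called, beside 11.7% of all probe sets, and the median was log2 -0.43 beside -0.24. All 11 changes were below 0 there on the deposited scale, and 5 of 11 were above 0 under either other scaling. In A880 against BY4741 none was called, and 8 of 11 changes were above 0 on the deposited scale, 6 of 11 under either other scaling. With only their own 4 arrays in the fit, 6 were called higher in A880 than in BY4741 and 1 lower, beside 29.6% and 24.8% of all probe sets.

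RRP40 (YOL142W), which encodes a cap subunit through which RNA enters the exosome, gave 691 and 441 on the A880STM1K arrays, 701 and 762 on A880STM1, 1591 and 1434 on A880 and 1245 and 1106 on BY4741. Both transformed strains lay below A880 and BY4741, and A880 was highest. RRP40 in A880STM1K fell by 1.45 ± 0.25 log2 units (adjusted p = 0.00126) relative to A880, kept with any 1 array left out, and fell by 1.09 ± 0.25 log2 units (adjusted p = 0.0052) relative to BY4741, lost without BY4741 replicate 1 (adjusted p = 0.0513). In A880STM1 it fell by 1.05 ± 0.25 log2 units (adjusted p = 0.0211) relative to A880, lost without A880STM1 replicate 1 or either A880 array and at equal array medians (adjusted p between 0.0718 and 0.169). RRP46 (YGR095C), a gene of the exosome ring, gave 688 and 521 on the A880STM1K arrays, 615 and 547 on A880STM1, 1023 and 1006 on A880 and 663 and 697 on BY4741. A880 was highest and A880STM1K overlapped with both A880STM1 and BY4741. RRP46 fell by 0.81 ± 0.23 log2 units (adjusted p = 0.038) in A880STM1 and fell by 0.76 ± 0.23 log2 units (adjusted p = 0.0214) in A880STM1K, both relative to A880. The first was lost without A880STM1 replicate 1, either A880 array or either BY4741 array, after quantile normalization, at equal array medians, with only the 4 arrays compared and with weights per group (adjusted p between 0.0509 and 0.233). The second was lost without A880STM1K replicate 2, either A880 array or either BY4741 array, after quantile normalization and at equal array medians (adjusted p between 0.0505 and 0.149).

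For the genes of both exosome nucleases, A880STM1 had the lowest signals. DIS3 (YOL021C), which encodes the nuclease of the core exosome, gave 1123 and 872 on the A880STM1K arrays, 438 and 531 on A880STM1, 989.8 and 942 on A880 and 707 and 749 on BY4741. The A880STM1 arrays lay below all others, and A880STM1K overlapped with A880. DIS3 fell by 1.00 ± 0.23 log2 units (adjusted p = 0.019) in A880STM1 relative to A880 and rose by 1.04 ± 0.23 log2 units (adjusted p = 0.00681) in A880STM1K relative to A880STM1. The first was lost without A880STM1 replicate 1 or either A880 array (adjusted p between 0.0712 and 0.159) and the second with only the 4 arrays compared and with weights per group (adjusted p = 0.0563 and 0.0571). RRP6 (YOR001W), which encodes the nuclease found with the nuclear exosome, gave 1088 and 673 on the A880STM1K arrays, 387 and 418 on A880STM1, 1017 and 604 on A880 and 760.0 and 781 on BY4741. A880STM1 was again lowest, and the replicates of A880STM1K and of A880 lay far apart. RRP6 rose by 1.09 ± 0.31 log2 units (adjusted p = 0.0205) in A880STM1K relative to A880STM1, lost without A880STM1K replicate 1 or either A880STM1 array, with only the 4 arrays compared and with weights per group (adjusted p between 0.0514 and 0.266).

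Among the ring genes, MTR3 and SKI6 were also called against A880. MTR3, with signals of 110.2 to 473, fell by 1.38 ± 0.41 log2 units (adjusted p = 0.0405) in A880STM1 and fell by 1.36 ± 0.41 log2 units (adjusted p = 0.0201) in A880STM1K, and SKI6, with 411 to 792, fell by 0.83 ± 0.25 log2 units (adjusted p = 0.0414) in A880STM1. A880 had the highest signals of both genes. The calls of MTR3 were lost without either A880STM1 array, either A880 array or either BY4741 array, after quantile normalization and at equal array medians (adjusted p between 0.0607 and 0.212) in A880STM1, and without A880STM1K replicate 2 or either A880 array, at equal array medians and with only the 4 arrays compared (adjusted p between 0.0508 and 0.0939) in A880STM1K. That of SKI6 was lost without A880STM1 replicate 1, either A880 array or either BY4741 array, after quantile normalization, at equal array medians, with only the 4 arrays compared and with weights per group (adjusted p between 0.0532 and 0.231). The cap genes CSL4 and RRP4 and the ring genes RRP42, RRP43 and RRP45 were called in no comparison. Their signals spanned 791 to 1341, 534 to 1000.3, 532 to 920.0, 379 to 548 and 279 to 741, and RRP42 kept within log2 0.29 in every comparison.

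**Figure D5:**
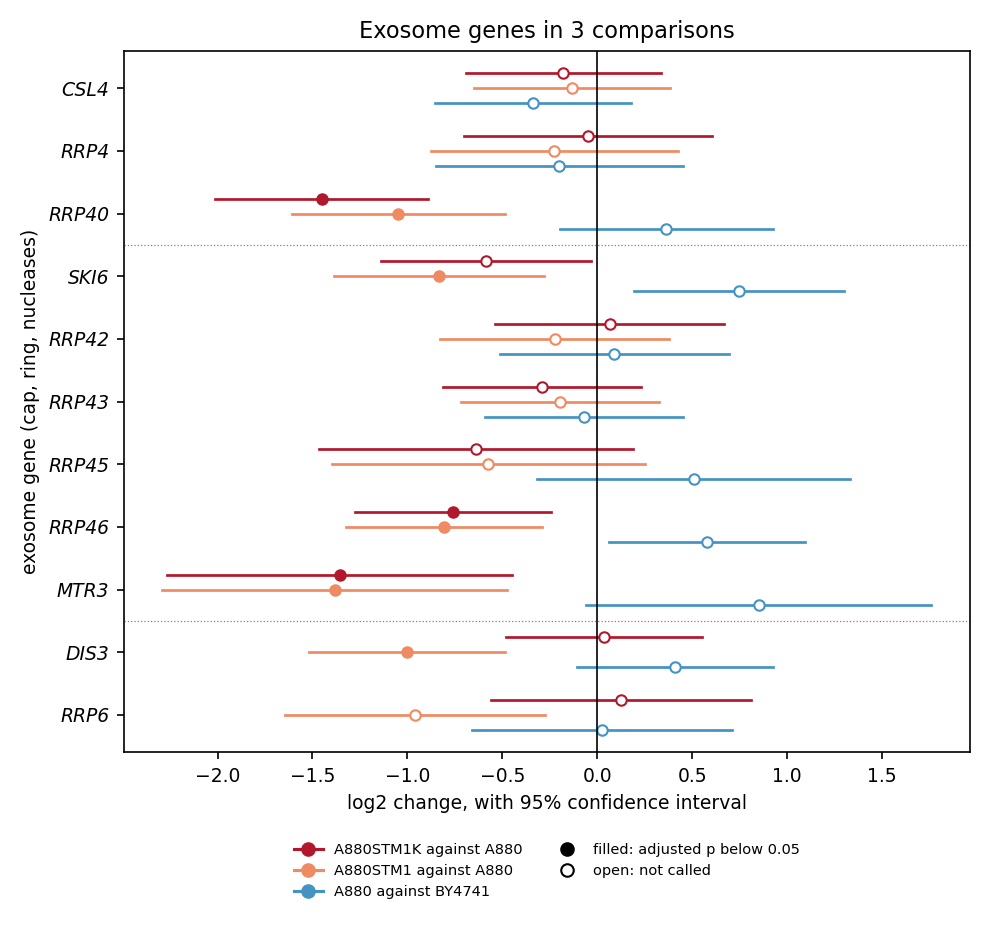
Log2 change of the 11 exosome genes with its 95% confidence interval in A880STM1K against A880, A880STM1 against A880 and A880 against BY4741; filled points were called at adjusted p below 0.05. On the deposited scale all 11 points for A880STM1 against A880 lie below 0, 5 of them filled, and 4 of 11 were above 0 under either other scaling.

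A further list of 25 decay cofactors and nuclear surveillance factors, 24 of them tested, was set beside the members. In A880STM1K 3 of 24 rose and 7 fell relative to A880, 4 rose and 3 fell relative to A880STM1, and 4 rose and 9 fell relative to BY4741, beside 47.1%, 35.0% and 49.5% of all probe sets called. In A880STM1 1 rose and 6 fell relative to A880, and 1 rose and 6 fell relative to BY4741, and in A880 2 rose and 1 fell relative to BY4741, beside 19.9%, 11.7% and 13.9% of all probe sets called. MPP6 (YNR024W), which encodes a cofactor of the nuclear exosome, gave 196 and 155 on the A880STM1K arrays, 181 and 219 on A880STM1, 489 and 506 on A880 and 464 and 495 on BY4741. Both transformed strains lay below A880 and BY4741 and overlapped with each other. MPP6 relative to A880 fell by 1.52 ± 0.27 log2 units (adjusted p = 0.00131) in A880STM1K and fell by 1.32 ± 0.27 log2 units (adjusted p = 0.0113) in A880STM1. The A880STM1 call was lost without either A880 array (adjusted p = 0.106 and 0.122).

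CTH1 (YDR151C), the gene of a zinc finger protein that promotes decay of AU-rich messages, gave 788 and 878 on the A880STM1K arrays, 1974 and 1369 on A880STM1, 1036 and 1024 on A880 and 564 and 667 on BY4741. A880STM1 was highest and BY4741 lowest, with no overlap between strains. CTH1 rose by 1.42 ± 0.24 log2 units (adjusted p = 0.00641) in A880STM1 relative to BY4741 and fell by 0.98 ± 0.24 log2 units (adjusted p = 0.0104) in A880STM1K relative to A880STM1. The first was lost without A880STM1 replicate 1 or BY4741 replicate 1 (adjusted p = 0.0501 and 0.0887) and the second with only the 4 arrays compared and with weights per group (adjusted p = 0.0514 and 0.0816). MRN1 (YPL184C), which encodes an RNA-binding protein, gave 231 and 311 on the A880STM1K arrays, 326 and 617 on A880STM1, 709 and 650.2 on A880 and 1263 and 1331 on BY4741. BY4741 was highest, followed by A880, A880STM1 and A880STM1K, with no overlap. MRN1 fell by 2.27 ± 0.31 log2 units (adjusted p = 0.000266) in A880STM1K and fell by 1.53 ± 0.31 log2 units (adjusted p = 0.0162) in A880STM1, both relative to BY4741. The A880STM1 call was lost without A880STM1 replicate 1 or either BY4741 array (adjusted p between 0.0798 and 0.134).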

How the data were processed

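Labelled RNA of 8 yeast cultures, 2 per strain, made from 10 µg of total RNA each, was read on Affymetrix Yeast Genome 2.0 arrays. The authors deposited linear intensity for each probe set, computed with MAS5 per the submitters' processing notes, whose version and settings the sources used here do not give. Each array's mean after trimming 2% at each end was 500.15 to 500.26, so the arrays had been scaled to a common mean.

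The log2 of these signals was analysed. Background was the 90th percentile of each array's 1746 probe sets for another species, and the 5496 yeast probe sets above it on at least 2 arrays were tested. Group means over 8 arrays were modelled in limma 3.58.1 (R 4.3.3, jsonlite 2.0.0), with an intensity trend and 4 residual degrees of freedom. P-values of each of 6 contrasts were adjusted by the Benjamini-Hochberg method and called below 0.05. Probe sets were named through the platform annotation and the R64 gene table. The members, the role lists and the marker lists were chosen with earlier results of these data known.

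By rule, array values are given for members called in at least 1 contrast, up to 4 per role by smallest p, and for 4 of the other cofactors. Alternatives were other scalings, a pseudocount of 16, other filters, no trend, the replicate block, only the 4 arrays compared, weights per group, stricter thresholds and each array left out. For LSM8, MRN1, CTH1 and MPP6 they were chosen after seeing the data. The procedure was tested on simulated data with the same spread in every strain. Replicates here differed more in the transformed strains than in A880 and BY4741, and the simulation does not cover that. Precision is limited by 2 arrays per strain, and no sequence was analysed here. Replicates came from separate cultures per the labels, and no probe set had the same value on both arrays of a strain.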

Additional observations from a re-analysis of the deposited data

How the results depend on the processing

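Each of 60 calls of single decay genes was recomputed under 17 alternatives. Of 1020 recomputed values, 827 kept their call, 193 no longer passed the threshold and 0 turned direction. Part of this outcome was fixed in advance. Other filters, no trend, the replicate block, only the 4 arrays compared and weights per group leave a log2 change as it is. So does leaving out an array of a strain not compared. None of these could turn a direction. The filters and the pseudocount also lost no call, and all 41 genes lay well above background. With any 1 array left out and under both other scalings, 8 of 15 calls held in A880STM1K against A880, 8 of 14 in A880STM1K against A880STM1 and 6 of 17 in A880STM1K against BY4741, and none in the 3 other comparisons. Numbers of decay genes called with 1 array left out ran from 8 to 22 in A880STM1K against A880, 11 to 16 against A880STM1 and 8 to 21 against BY4741. They ran from 0 to 21 in A880STM1 against A880, 0 to 14 in A880STM1 against BY4741 and 0 to 6 in A880 against BY4741. Quantile normalization gave 6 calls for A880 against BY4741, beside 2, and 6 for A880STM1 against BY4741, beside 2. Equal array medians gave 3 for A880STM1 against A880, beside 10. With only the 4 arrays compared, 25 genes were called in A880 against BY4741 and 4 in A880STM1K against A880STM1, beside 14. Weights per group gave 25 and 3. Over all probe sets the 4 arrays gave 2992 and 1179 and weights 3140 and 794, beside 764 and 1925. Weights per group, and no intensity trend, each gave 1 in A880STM1 against BY4741. Over all probe sets they gave 362 and 461, beside 643. At an adjusted p below 0.01 the counts were 7 for A880STM1K against A880STM1, 11 for A880STM1K against BY4741 and 1 for A880STM1 against A880. They were 0 for A880STM1 and 0 for A880, each against BY4741. Over all probe sets this threshold gave 1043, 1824, 203, 126 and 220, in that order. Requiring 2-fold gave 8 for A880STM1K against A880STM1, 11 for A880STM1K against BY4741 and 6 for A880STM1 against A880. Over all probe sets it gave 1364, 1989 and 771. With the replicate block 7 were called in A880STM1 against BY4741, beside 2, and 16, 15, 17, 13 and 2 in A880STM1K against A880, A880STM1 and BY4741, A880STM1 against A880 and A880 against BY4741. The main fit does not take the numbers as pairing. Deviations of same-numbered arrays correlated at 0.037 to 0.287 over genes, with A880STM1 and A880 lowest. The block raised the calls over all probe sets in every comparison, such as from 764 to 993 in A880 against BY4741. In A880STM1 against BY4741 it raised them from 643 to 967. Whether same-numbered arrays share an effect was not tested. The causes of these shifts were not tested. All 41 genes were above background on every array, as were 5459 of 5498 yeast probe sets, and each strain had 2 arrays.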
